A study of Mus musculus with 23 samples.

Results

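Macrophages grown from mouse bone marrow (BMDMs) and labelled Stk40 knockout (KO) were compared between an untreated group, called T0, and a group exposed to lipopolysaccharide (LPS, an outer membrane component of Gram-negative bacteria) at the time point called T16. The comparison was defined by the group labels alone, with 3 KO T0 and 3 KO T16 libraries, 6 of the 23 in the series. The series holds polyadenylated RNA of KO and wild-type (WT) BMDMs at T0 and, with LPS, at T6, T16 and T32, with 3 libraries a group except WT T16, which had 2. The unit of time, the strain, the age of the mice, the LPS dose and the way Stk40 was disrupted are not stated in the labels. All libraries carry the same tissue label, bone marrow, and the LPS groups differ from T0 in the treatment label as well as in the time label, so exposure and time in culture cannot be told apart. All 15782 genes with enough counts of the 52636 in the deposited table were tested, and a gene is said to have risen or fallen, or to be called, at an edgeR adjusted p under 0.05.

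LPS is sensed by Toll-like receptor 4 with CD14 and MD-2, and signals through MyD88 to NF-kB and MAP kinases and through TRIF to IRF3 and type I interferon. In macrophages the early burst of cytokine transcripts is followed by feedback inhibitors, an interferon-driven programme and a change of metabolism. STK40 is a pseudokinase related to the Tribbles proteins that binds the E3 ubiquitin ligase COP1 (listed under its older symbol Rfwd2), a ligase known to target transcription factors of the C/EBP, ETS and JUN families for degradation.

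Library totals in the 6 libraries ran from 22138128 to 44097733 counts. KO T0 replicate 1 stood apart, with 0.35% of its counts on mitochondrial genes against 1.82% and 1.42% in the other KO T0 libraries and 0.24% in each KO T16 library. Leaving it out gave 7351 called genes against 6903, of which 6326 were called in both fits with the same direction, 91.6% of the 6903 and 86.1% of the 7351. Macrophage markers were present throughout: the 33 macrophage identity genes summed to between 61000 and 85700 CPM (counts scaled to library size, with TMM factors) at T0 and between 71100 and 75500 CPM at T16. The 13 erythroid markers summed to 344 to 422 CPM at T0 and 31.8 to 39.8 CPM at T16, most of it from Tfrc, with Rhag at 0 counts in all 6 libraries. The 18 T, B and NK cell markers summed to 70.8 to 114 CPM at T0 and 25.5 to 45.4 CPM at T16, and the 10 mast cell and basophil markers to 4.44 to 8.58 and 2.75 to 4.02 CPM, with Mcpt4 and Tpsb2 at 0 counts. The 16 neutrophil and granulocyte precursor markers summed to 691 to 804 CPM at T0 and 1600 to 1850 CPM at T16, the 14 dendritic cell markers to 687 to 864 and 1650 to 1730 CPM, and the 16 stromal and endothelial markers to 171 to 187 and 223 to 396 CPM. The part of these other cell types in the results below was not tested, and in RNA from a whole culture fewer cells of a type and less RNA per cell cannot be told apart.

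Stk40 itself (chr4:126103957-126141029 on GRCm38, plus strand) was read in every library labelled KO. Its level was 51.7, 61.3 and 56.5 CPM at T0 and 166, 155 and 162 CPM at T16, while the libraries labelled WT had 48.1 ± 7.29 CPM (SD, n = 3) at T0 and 120 ± 33.4 CPM (SD, n = 2) at T16. The KO libraries were thus not below the WT libraries at either time. Stk40 rose in the libraries labelled KO, by 1.51 ± 0.15 (log2 fold change ± SE, adjusted p = 1.9e-07), and in those labelled WT by 1.31 ± 0.17 (adjusted p = 3.9e-06). The deposited table has 1 count per gene, so whether part of the transcript is missing could not be read from it, and the genotype labels were not checked by this gene. Every statement on KO below refers to the libraries labelled KO.

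The KO macrophages at T16 differed broadly from the untreated ones: 3226 genes rose (20.4% of those tested) and 3677 fell (23.3%), together 6903 (43.7%). With a test of changes beyond 2-fold (edgeR glmTreat), 882 genes were higher (5.59%) and 676 lower (4.28%); the latter count was 450 without KO T16 replicate 1 and 367 with DESeq2. The 3 libraries of each time point did not overlap for 4365 genes that were higher at T16 (27.7%) and for 4653 that were lower (29.5%). The median log2 fold change over all genes was -0.05 with TMM scaling and -0.50 when library totals were used, under which 1704 genes were higher and 7033 lower; directions are given relative to the TMM scale.

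**Figure D1:**
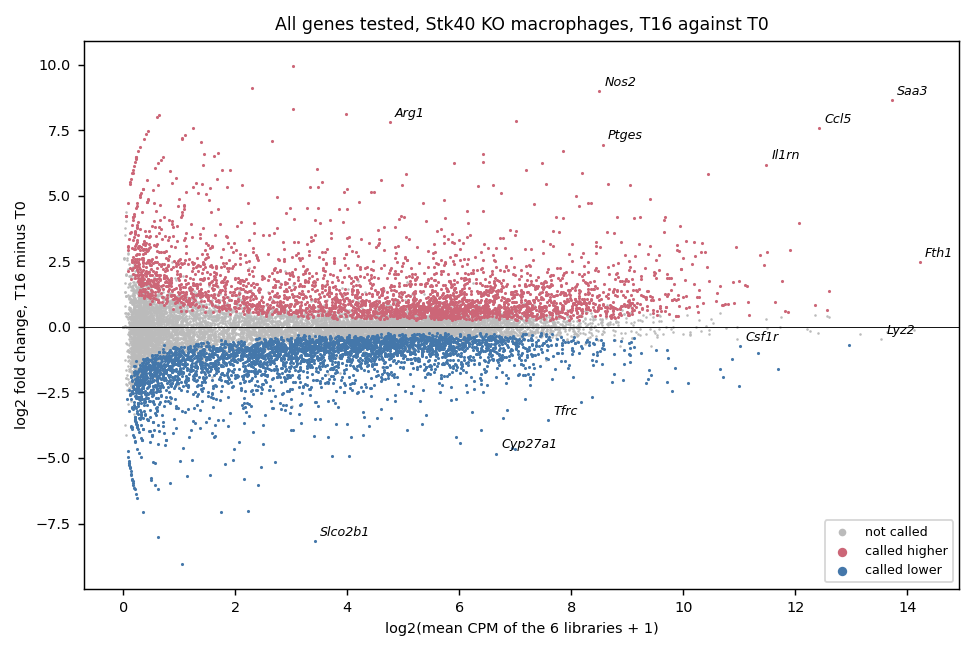
Log2 fold change (T16 minus T0) of each of the 15782 genes tested against its mean CPM in the 6 KO libraries on a log2 scale; red points are the 3226 called genes that were higher, blue points the 3677 that were lower and grey points the rest. Nos2, Saa3 and Ccl5 lie at the top, and Slco2b1 and Cyp27a1 at the bottom, far from the bulk of genes.

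Nos2 (chr11:78920787-78960254, plus strand), the inducible nitric oxide synthase, was at 1.46, 1.7 and 1.07 CPM at T0 and at 804, 644 and 700 CPM at T16, a log2 fold change of 8.99 ± 1.01 (adjusted p = 6.4e-07). Saa3 (chr7:46711998-46715700, minus strand), an acute phase serum amyloid made by macrophages, went from 48, 81.8 and 72.3 to 30200, 26700 and 24000 CPM, a log2 fold change of 8.65 ± 0.59 (adjusted p = 9.6e-10). In both genes the lowest T16 library lay far above the highest T0 library. Arg1 (chr10:24915221-24927484, minus strand), the arginase that competes with NOS2 for arginine, was at 0.201, 0.139 and 0.344 CPM at T0 and at 44.3, 67.7 and 43.1 CPM at T16, a log2 fold change of 7.81 ± 0.5 (adjusted p = 3.4e-10). Ccl5, a chemokine that draws T cells and monocytes, went from 77.7, 44.5 and 49.4 to 11900, 10100 and 10700 CPM, a log2 fold change of 7.57 ± 0.43 (adjusted p = 7.4e-11). These genes, like all those named in this paragraph, were selected for groups that did not overlap, so that separation is no separate result. The other genes with the largest rises were Tarm1, an activating receptor of myeloid cells (7.85 ± 0.36, from 0.929, 1.35 and 1.07 to 268, 230 and 271 CPM), Ptges, the inducible prostaglandin E synthase (6.95 ± 0.24, from 4.39, 7.65 and 6.13 to 732, 677 and 826 CPM), and Fpr1, the receptor for formylated bacterial peptides (6.7 ± 0.47, from 4.39, 3.91 and 4.82 to 493, 422 and 450 CPM). Cxcl11, Slc7a2, Il1a, Il1b, Il1rn and Heatr9 followed, with log2 fold changes from 6.02 to 6.59 and adjusted p from 1.6e-11 to 6.4e-08. The transcripts U90926 and Mir155hg, the host transcript of miR-155, rested on 10 and 7 counts in the 3 T0 libraries together and reached 2932 and 1038 counts at T16.

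Slco2b1 (chr7:99657804-99711340, minus strand), an organic anion transporter, was at 17.2, 23.5 and 17.3 CPM at T0 and had 6 counts in the 3 T16 libraries together, at 0.0706, 0.107 and 0.025 CPM; it fell by 8.17 on the log2 scale (SE 0.4, adjusted p = 1.7e-11). Cyp27a1 (chr1:74713574-74737892, plus strand), the mitochondrial sterol 27-hydroxylase, went from 150, 266 and 165 to 5.54, 7.93 and 6.86 CPM, where it fell by 4.84 (SE 0.25, adjusted p = 2.4e-11). Both genes, and the others named in this paragraph, were likewise selected for groups that did not overlap. S100a4, a calcium-binding protein of motile cells, went from 126, 367 and 236 to 9.67, 11.2 and 8.28 CPM and fell by 4.65 (SE 0.49, adjusted p = 3.1e-07). Igfbp4, which binds insulin-like growth factors, went from 230, 281 and 191 to 7.91, 11.8 and 8.94 CPM and fell by 4.61 (SE 0.31, adjusted p = 9.8e-10). The rest of the 15 largest falls were in Lrrc14b, Gprc5c, Engase (a cytosolic enzyme that trims glycans), Slc9a9 (an endosomal sodium-proton exchanger), Gpr155, Clec10a (a galactose-binding lectin), Matk, Zfyve28, Lgals4, Crip1 and Bmyc, with log2 fold changes between -5.16 and -3.95. For Lgals4 that value rested on 1 library: its levels at T0 were 1.23, 37.2 and 1.82 CPM, and without KO T0 replicate 2 it fell by 0.82 (adjusted p = 0.12).

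**Figure D2:**
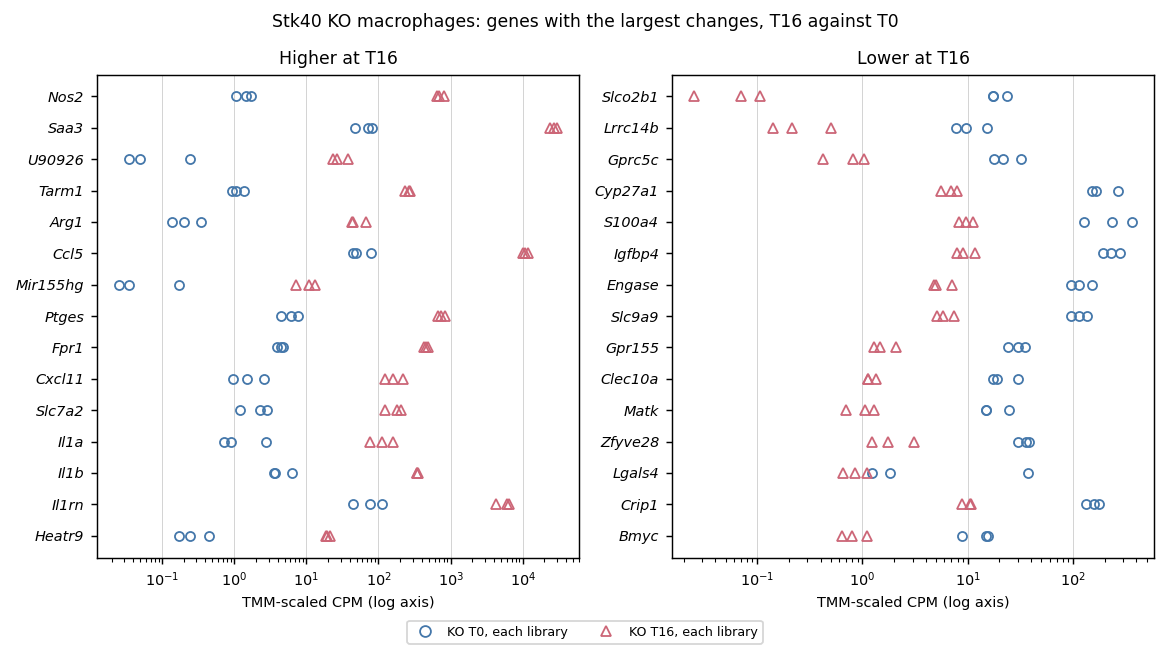
Levels of the 15 genes with the largest rises (left) and the 15 with the largest falls (right) in each KO library, in TMM-scaled CPM on a log axis; circles are the 3 T0 libraries and triangles the 3 T16 libraries. Only genes whose 2 sets of libraries did not overlap were eligible. The sets are far apart for every gene shown except Lgals4, whose T0 libraries at 1.23 and 1.82 CPM lie close to the T16 libraries.

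Of 26 inflammatory cytokines, 18 rose, 8 did not pass the test and 0 fell against T0, with a median log2 fold change of 1.84 against -0.05 over all genes. With library totals 17 were higher and 2 lower. Among the cytokines, the interferon response genes and the MHC class I genes described below, 0 were lower at an unadjusted edgeR p under 0.05 or with DESeq2, and among the NF-kB genes 1 and 0. Il1b, a pyrogenic cytokine activated by the inflammasome, went from 3.71, 6.34 and 3.58 to 357, 342 and 344 CPM (log2 fold change 6.26 ± 0.38, adjusted p = 1.7e-10). Il1rn, which blocks the same receptor, went from 111, 44.5 and 76.4 to 6110, 4260 and 6440 CPM (6.18 ± 0.34, adjusted p = 5.1e-11). Both sets of T16 libraries were clear of the T0 libraries, for which both genes were selected, as described above. Tnf was at 31.7, 39.7 and 41.5 CPM at T0 and at 214, 122 and 230 CPM at T16 (2.32 ± 0.24, adjusted p = 2.4e-07), with replicate 2 the lowest of the T16 libraries. Il6, which had 8 counts in the T0 libraries together, was at 5.51, 4.55 and 6.11 CPM at T16. The granulocyte growth factor Csf3, with 2 counts at T0, was at 4.06, 1.85 and 3.73 CPM. Il10, the main anti-inflammatory cytokine of macrophages, went from 23.3, 27.7 and 27.1 to 85.1, 49.3 and 102 CPM (1.6 ± 0.42, adjusted p = 0.0048). Il12b was called at low counts, from 0.452, 0.0693 and 0.275 to 1.06, 0.64 and 1.38 CPM (1.88 ± 0.69, adjusted p = 0.034). That call was lost when any of 4 single libraries (KO T16 replicates 1 and 3, KO T0 replicates 2 and 3) was left out, with adjusted p from 0.064 to 0.13. It was also lost with library totals (1.45, adjusted p = 0.081) and with no filter on low counts (adjusted p = 0.11).

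Of 20 chemokines 15 rose and 2 fell (median 2.29). Beside Ccl5, the interferon-inducible CXCR3 ligands rose. Cxcl11 went from 2.61, 0.97 and 1.51 to 161, 122 and 219 CPM (6.59 ± 0.62). Cxcl9 went from 1.13, 1.45 and 0.791 to 40.5, 53 and 26.1 CPM (5.14 ± 0.61). The third ligand, Cxcl10, already stood at 343, 240 and 278 CPM at T0 and reached 1860, 1420 and 2000 CPM (2.62 ± 0.47, adjusted p = 0.00016). The monocyte attractants Ccl2 and Ccl7 rose by 4.98 ± 0.38 and 5.43 ± 0.49, and the neutrophil attractant Cxcl3 by 5.52 ± 0.57. Among 15 chemoattractant receptors 10 rose and 5 fell (median 1.12). Fpr2 went from 4.49, 5.71 and 7.95 to 207, 191 and 224 CPM (5.1 ± 0.33, adjusted p = 4.8e-10). The receptor gene Ccrl2 rose by 3.14 ± 0.33. In contrast Cxcr4, the receptor for the retention chemokine CXCL12, went from 239, 165 and 198 to 15.8, 21.5 and 17.1 CPM and fell by 3.47 (SE 0.34, adjusted p = 1.1e-07).

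Of the LPS sensing genes, the co-receptor Cd14 passed the test and the receptor Tlr4 did not. Of 27 genes of the LPS receptor and Toll-like receptor pathway, 11 rose and 1 fell (median 0.67), and with library totals 5 were higher and 4 lower. Tlr4, the LPS receptor, was at 95.8, 52.3 and 69.4 CPM at T0 and 73.2, 65.5 and 75.3 CPM at T16 (log2 difference -0.02 ± 0.24, adjusted p = 0.95). Tlr2 was at 201, 143 and 131 and at 165, 143 and 195 CPM (0.08 ± 0.22, adjusted p = 0.78). The 2 time points overlapped for both receptors. Cd14, the LPS co-receptor, went from 235, 327 and 316 to 572, 580 and 538 CPM (0.95 ± 0.16, adjusted p = 8.8e-05). Tlr1 rose by 1.33 ± 0.18 and Tlr3, the sensor of double-stranded RNA, by 1.84 ± 0.25. The largest change of the list was in Irak3, an inhibitory member of the IRAK kinase family, which went from 34.6, 31.8 and 31.1 to 271, 227 and 266 CPM (2.97 ± 0.17, adjusted p = 9.3e-11). Tlr5, the flagellin receptor, fell by 1.64 (SE 0.53, adjusted p = 0.018) from levels near 1 CPM, a call lost without KO T16 replicate 3 (adjusted p = 0.097).

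Of 28 NF-kB subunits and regulators, 20 rose, 8 did not pass the test and 0 fell (median 0.74). With library totals 12 were higher and 4 lower (median 0.29), and without KO T0 replicate 1 the counts were 17 and 1. Nfkbia, the inhibitor that NF-kB itself induces, was at 135, 214 and 199 CPM at T0 and at 536, 451 and 556 CPM at T16 (1.49 ± 0.24, adjusted p = 4.4e-05). Tnfaip3, the ubiquitin-editing inhibitor A20, rose by 1.92 ± 0.19, its partners Tnip1 and Tnip3 by 2.23 ± 0.18 and 2.1 ± 0.18, Nfkbie by 2.19 ± 0.17, Traf1 by 3.02 ± 0.22 and Nfkb2 by 1.15 ± 0.15. All 6 had T16 libraries clear of the T0 libraries, as did 27.7% of all genes tested. Traf1, Tnip1, Nfkbie and Tnip3 were named for large called changes, so their separation is no separate result. Among 25 inducible negative feedback genes 15 rose, 8 did not pass the test and 2 fell (median 1.02; 13 higher and 4 lower with library totals). Socs3, which blocks cytokine receptor signalling, went from 9.09, 12.7 and 8.05 to 615, 496 and 611 CPM (5.85 ± 0.26, adjusted p = 5.7e-12). Socs1 rose by 2.24 ± 0.43. Cd274, which encodes the T-cell inhibitory ligand PD-L1, went from 351, 173 and 243 to 2570, 2040 and 2350 CPM (3.18 ± 0.23, adjusted p = 1.9e-09). Pdcd1lg2 (PD-L2) rose by 3.21 ± 0.36. With the other costimulatory and checkpoint ligands 11 of 15 rose and 4 fell (median 1.62), among them Cd40 (2.67 ± 0.29) and Slamf7 (3.07 ± 0.3), which rose.

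Of the 58 genes of the interferon response list, 55 rose and 0 fell (median 1.56, with 28 higher beyond 2-fold), and with library totals 48 were higher and 1 lower. Ifit1, an interferon-induced sensor of foreign RNA caps, was at 440, 259 and 364 CPM at T0 and at 1700, 1390 and 1810 CPM at T16 (2.21 ± 0.24, adjusted p = 4.3e-07). Mx1, an antiviral GTPase, went from 470, 497 and 419 to 2480, 2050 and 2300 CPM (2.3 ± 0.28, adjusted p = 1.8e-06). The T16 libraries were above every T0 library for both. Isg20, an exonuclease, rose by 3.66 ± 0.32. Ifi205, Tgtp1 and Slfn4 rose by 4.74 ± 0.48, 3.95 ± 0.58 and 3.95 ± 0.39, but their values are uncertain. They belong to families with near-identical copies. Only uniquely aligned reads were counted, so reads shared among copies could have been left out. Ifnb1, interferon beta itself, was at 1.31, 1.14 and 1.34 CPM at T0 and at 3, 3.8 and 4.25 CPM at T16 (1.54 ± 0.4, adjusted p = 0.0043). Of 22 interferon regulatory factors and STATs 13 rose and 1 fell (median 0.55), while with library totals 8 were higher and 6 lower. Irf7, which amplifies interferon production, went from 2070, 1360 and 1320 to 5700, 5030 and 5230 CPM (1.75 ± 0.24, adjusted p = 9e-06). Ifnar1 rose by 1.69 ± 0.14 and Jak2 by 3.09 ± 0.22. Irf4, a factor of alternative activation, fell by 1.66 (SE 0.34, adjusted p = 0.00061). Irf8 was at 300, 325 and 289 CPM and at 249, 257 and 234 CPM (log2 difference -0.31 ± 0.13, adjusted p = 0.066), and with library totals it passed the test (-0.76, adjusted p = 1.9e-05).

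The promoters of 5 of these genes are shown because their transcripts rose and because the 200 bases before their RefSeq start sites hold letters of motifs bound by NF-kB, interferon-activated factors or C/EBP proteins. The sequences come from the RefSeq promoter table (GRCm38.p6), read 5' to 3' on the strand of the gene, with motif matches in capitals. The windows are chr7:46715677-46715876 (minus strand) for Saa3, chr1:150099831-150100030 (plus) for Ptgs2, chr19:34640689-34640888 (plus) for Ifit1, chr12:55492648-55492847 (minus) for Nfkbia and chr5:30012914-30013113 (plus) for Il6.
Saa3: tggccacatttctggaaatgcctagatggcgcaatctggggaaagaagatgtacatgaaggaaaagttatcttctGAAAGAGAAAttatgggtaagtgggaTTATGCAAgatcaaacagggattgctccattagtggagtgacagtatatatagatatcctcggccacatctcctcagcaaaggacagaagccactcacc
Ptgs2: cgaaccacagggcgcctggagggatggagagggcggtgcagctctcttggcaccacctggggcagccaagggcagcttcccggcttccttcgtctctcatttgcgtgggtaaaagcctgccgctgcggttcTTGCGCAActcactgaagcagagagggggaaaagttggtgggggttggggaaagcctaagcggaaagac
Ifit1: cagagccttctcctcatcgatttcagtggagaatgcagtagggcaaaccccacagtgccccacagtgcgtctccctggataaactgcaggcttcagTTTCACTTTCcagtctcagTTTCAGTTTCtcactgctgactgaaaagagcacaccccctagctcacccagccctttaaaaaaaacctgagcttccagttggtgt
Nfkbia: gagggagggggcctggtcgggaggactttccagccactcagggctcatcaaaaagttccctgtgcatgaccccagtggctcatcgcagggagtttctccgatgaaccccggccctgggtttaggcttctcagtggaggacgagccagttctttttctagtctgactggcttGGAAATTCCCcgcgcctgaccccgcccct
Il6: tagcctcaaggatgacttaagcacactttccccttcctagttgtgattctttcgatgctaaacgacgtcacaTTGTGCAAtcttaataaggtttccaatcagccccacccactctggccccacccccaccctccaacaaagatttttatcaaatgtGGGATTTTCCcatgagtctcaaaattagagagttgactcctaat
The motifs searched on both strands were GGG and TTTCC with any 2 bases between them (NF-kB), GAAA and GAAA with any 2 bases between them (interferon-stimulated response element, ISRE), TTCNNNGAA (GAS, bound by STATs), TTGCNNAA (C/EBP) and TGANTCA (AP-1), and matches of different motifs could overlap. In Saa3 an ISRE match began 125 bases and a C/EBP match 99 bases before the start site, in Ptgs2 a C/EBP match 69 bases, in Ifit1 ISRE matches 104 and 85 bases, in Nfkbia an NF-kB match 29 bases, and in Il6 a C/EBP match 128 and an NF-kB match 44 bases before it. Ptgs2, the inducible cyclooxygenase, went from 0.853, 0.9 and 1.03 CPM at T0 to 48.9, 32.5 and 54.6 CPM at T16 (5.61 ± 0.49, adjusted p = 2.6e-08).

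Across windows of the same length, motif letters were counted without a test. An ISRE match was in 2.27% of the 32851 promoters of the table and in 2.25% of the 13436 promoters matched to tested genes. It was in 8.08% of the 780 promoters of 605 matched genes that were higher beyond 2-fold, and in 2.32% of the 603 promoters of 462 matched genes that were lower beyond 2-fold. Of the 30 promoters of interferon response genes higher beyond 2-fold, 14 held one (46.7%). NF-kB letters were in 1.32% of the promoters of tested genes, 3.21% of those of the higher genes and 1.16% of those of the lower genes, and in 4 of the 16 promoters (25.0%) of cytokine and chemokine genes higher beyond 2-fold. AP-1 letters were in 3.97%, 7.95% and 3.98%, C/EBP letters in 6.04%, 8.97% and 6.63%, and GAS letters in 4.67%, 7.05% and 3.32% of the promoters of tested, higher and lower genes. A match is a stretch of letters and not a measured binding site.

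**Figure D3:**
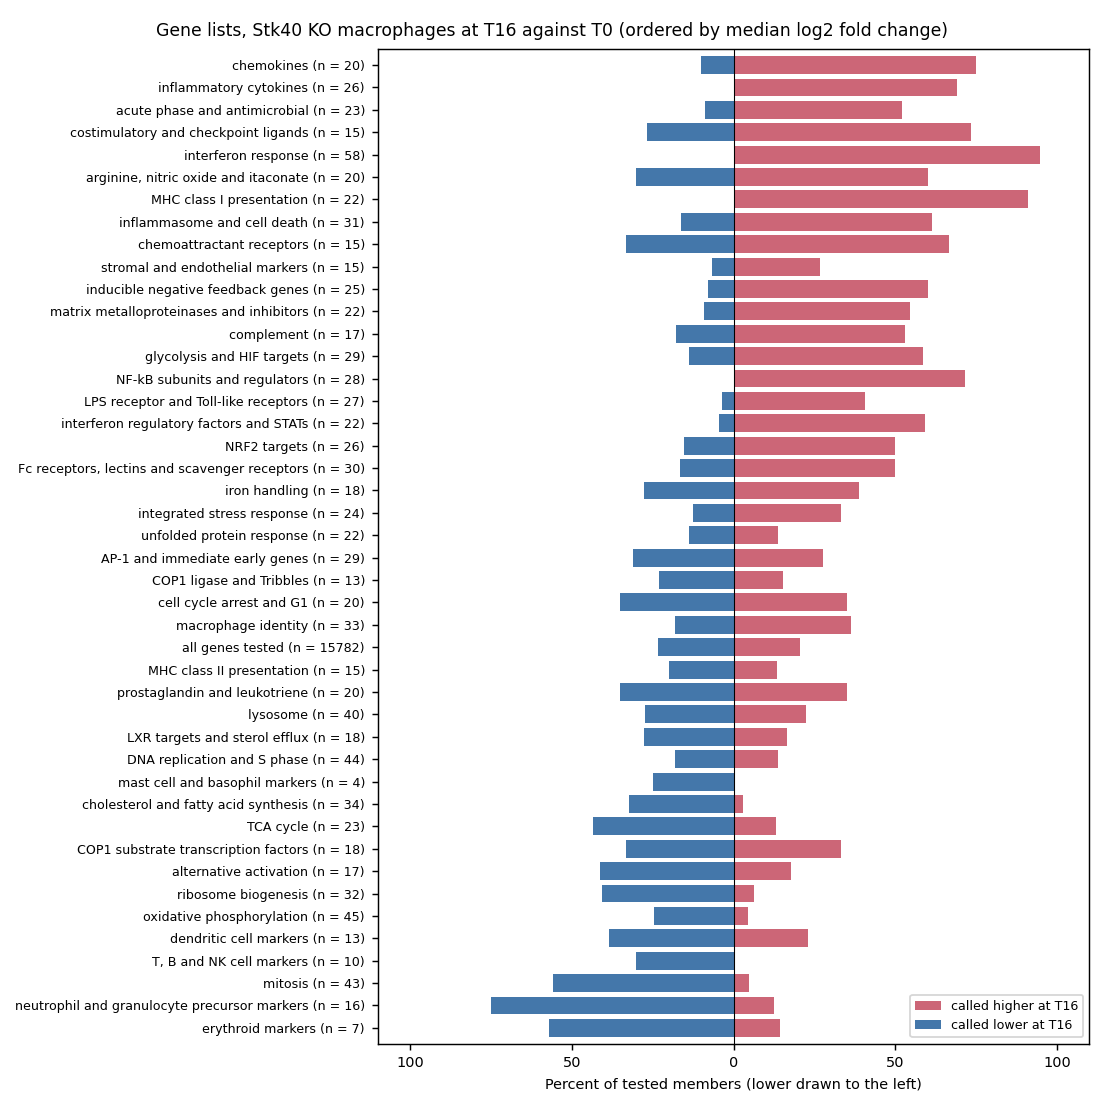
Percent of the tested members of each gene list called higher (red, to the right) and lower (blue, to the left) at T16 against T0 in KO macrophages, ordered by the median log2 fold change of the list, with all 15782 tested genes as a bar for comparison. The interferon response bar (55 of 58 higher) and the MHC class I bar (20 of 22 higher) have no lower part, and the mitosis bar (24 of 43 lower) lies mostly to the left.

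Of 22 genes of MHC class I presentation 20 rose and 0 fell (median 1.15). B2m, the shared light chain, went from 4910, 2530 and 2960 to 9320, 8100 and 9400 CPM (1.37 ± 0.27, adjusted p = 0.00047). Psme2, a subunit of the proteasome activator, rose by 1.53 ± 0.28. H2-K1 rose by 0.82 ± 0.2 (adjusted p = 0.0021; 0.37 and adjusted p = 0.081 with library totals). The related H2-Q7, H2-Q6 and H2-T22 rose by 3.28, 2.75 and 2.5, with uncertain values because their family members are near-identical. In MHC class II presentation 2 of 15 rose and 3 fell (median -0.08), shares below the 20.4% and 23.3% over all genes tested. With library totals 1 was higher and 6 lower. H2-Aa was at 89.6, 88 and 57.8 CPM at T0 and at 40.1, 53.9 and 67.1 CPM at T16 (log2 difference -0.55 ± 0.27, adjusted p = 0.1), and with library totals it passed the test (-0.99, adjusted p = 0.0029). The class II transactivator Ciita was at 3.69, 2.35 and 1.07 and at 1.31, 1.78 and 2.33 CPM (-0.4 ± 0.43, adjusted p = 0.47). The time points overlapped for both. March1, the ubiquitin ligase that removes class II molecules from the surface, went from 54.1, 36.4 and 41.7 to 332, 282 and 323 CPM (2.83 ± 0.23, adjusted p = 8.9e-09). Ifi30, a lysosomal thiol reductase, fell by 1.33 (SE 0.16) and Cd83, which opposes March1, by 1.24 (SE 0.24). H2-Eb1 fell by 0.81 (SE 0.3, adjusted p = 0.037, lost without any 1 of 5 single libraries, adjusted p 0.053 to 0.15, and with no filter on low counts, adjusted p = 0.095).

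Of 23 acute phase and antimicrobial genes 12 rose and 2 fell (median 1.64), and with library totals 11 were higher and 8 lower. Lcn2, which binds bacterial siderophores, went from 57.8, 42.1 and 35 to 1340, 1130 and 1480 CPM (4.87 ± 0.37, adjusted p = 4.5e-09). The scavenger receptor Marco was at 3.99, 18.6 and 13.5 CPM at T0 and varied at T16, with 350, 470 and 107 CPM (4.69 ± 0.79, adjusted p = 8.8e-05). Saa2, a near-identical relative of Saa1, had 0 counts in the T0 libraries and 108 counts in the T16 libraries. Among 17 complement genes 9 rose and 3 fell (median 0.88; 7 higher and 5 lower with library totals). Factor B (Cfb) went from 3.76, 3.71 and 2.92 to 105, 96.8 and 99.1 CPM (4.85 ± 0.39, adjusted p = 9.5e-09). C3 rose by 2.9 ± 0.39 and C1ra by 2.19 ± 0.15. For 31 inflammasome and cell death genes, 19 rose and 5 fell (median 1.12; 16 higher and 8 lower with library totals). Nlrp3, the inflammasome sensor, went from 27.5, 31.5 and 29 to 154, 115 and 148 CPM (2.24 ± 0.21, adjusted p = 7e-08). Casp4, the cytosolic LPS sensor also known as caspase-11, rose by 1.54 ± 0.16, and Cflar, an inhibitor of caspase-8, by 2.83 ± 0.15. Bbc3, which encodes the death-promoting protein PUMA, went from 40.6, 53.1 and 52.4 to 7.02, 7.29 and 6.51 CPM and fell by 2.81 (SE 0.25, adjusted p = 3.3e-08). Bcl2a1a and Bcl2a1d, near-identical survival genes with 0 and 3 counts at T0, had 71 and 26 counts at T16.

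Of 30 Fc receptors, lectins and scavenger receptors 15 rose and 5 fell (median 0.34 with TMM and -0.11 with library totals, under which 12 were higher and 8 lower). Clec4e, the lectin Mincle, went from 19.5, 27.2 and 25.6 to 1030, 782 and 1290 CPM (5.42 ± 0.24, adjusted p = 4.1e-12). The scavenger receptor Msr1 went from 112, 116 and 135 to 1590, 1260 and 1620 CPM (3.62 ± 0.16, adjusted p = 5.7e-12). Of 22 matrix metalloproteinases and inhibitors 12 rose and 2 fell (median 0.95; 9 higher and 3 lower with library totals). Mmp14, a membrane-bound collagenase, went from 25.7, 18.9 and 24.7 to 628, 550 and 641 CPM (4.71 ± 0.25, adjusted p = 2.7e-11). Mmp13 rose by 2.96 ± 0.3, Mmp25 by 5.33 ± 0.62, the protease inhibitor Serpinb2 by 4.71 ± 0.49 and the matrix protein Thbs1 by 3.85 ± 0.59. Mmp9 was at 20, 18.6 and 13.3 CPM and at 27.8, 37.5 and 21.8 CPM (0.74 ± 0.3, adjusted p = 0.053). It passed the test in the fit of the compared groups alone (adjusted p = 0.024), without KO T16 replicate 3 (0.037), with DESeq2 (0.042), with DESeq2 size factors in edgeR (0.048) and with the replicate block (0.037).

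Of 33 macrophage identity genes, 12 rose and 6 fell (median -0.03 with TMM and -0.47 with library totals, under which 8 were higher and 12 lower). Csf1r, the receptor for the growth factor that maintains macrophages, went from 3010, 2550 and 2170 to 1470, 1720 and 1440 CPM and fell by 0.74 (SE 0.2, adjusted p = 0.0055). Adgre1, the F4/80 antigen, went from 1650, 767 and 896 to 3320, 3520 and 3080 CPM (1.58 ± 0.36, adjusted p = 0.0014). Mrc1, the mannose receptor, went from 269, 192 and 206 to 59.6, 59.1 and 70.8 CPM and fell by 1.82 (SE 0.26, adjusted p = 1.2e-05). Gas6, a ligand of receptors for apoptotic cells, went from 494, 510 and 514 to 63, 71.9 and 76.2 CPM, where it fell by 2.85 (SE 0.15, adjusted p = 3.8e-11). The 2 time points were apart for all 4 genes. Over all genes tested 27.7% were apart and higher and 29.5% apart and lower. Mrc1 and Gas6 were among the largest called changes of the list, so their separation is no separate result. Cd68 was at 2100, 848 and 940 CPM and at 1620, 1460 and 1730 CPM (0.31 ± 0.33, adjusted p = 0.47). Without KO T0 replicate 1, its highest library, it passed the test (0.84, adjusted p = 0.034). C1qa was at 1310, 941 and 1270 and at 1010, 917 and 1180 CPM (-0.18 ± 0.34, adjusted p = 0.69). Of 17 alternative activation genes 3 rose and 7 fell (median -0.29). The 3 that rose include Arg1 and the interleukin 4 receptor Il4ra (3.13 ± 0.23, from 228, 188 and 162 to 1710, 1700 and 1660 CPM). Clec10a fell by 4.19 (SE 0.4). The call of Mgl2, with 30 counts at T0 and 3 at T16, was lost without KO T0 replicate 1 (adjusted p = 0.12).

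Genes of arginine, nitric oxide and itaconate metabolism were among those with the largest rises. Of 20, 12 rose and 6 fell (median 1.19). Beside Nos2 and Arg1, the arginine transporter Slc7a2 went from 2.81, 1.21 and 2.31 to 178, 122 and 204 CPM (6.3 ± 0.31, adjusted p = 1.6e-11). Acod1, which makes itaconate, went from 49.5, 43.3 and 50.9 to 2950, 2450 and 2800 CPM (5.83 ± 0.33, adjusted p = 7.4e-11). The mitochondrial arginase Arg2 rose by 3.28 ± 0.29. In prostaglandin and leukotriene metabolism 7 of 20 rose and 7 fell (median -0.1; 5 higher and 9 lower with library totals). There the synthetic enzymes Ptgs2 and Ptges rose, whereas Hpgd, which degrades prostaglandins, went from 421 counts in the T0 libraries to 3 in the T16 libraries. Ltc4s, the leukotriene C4 synthase, went from 4.82, 7.34 and 6.13 to 0.212, 0.178 and 0.425 CPM, where it fell by 4.41 (SE 0.39, adjusted p = 2.7e-08).

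Of 29 glycolysis and HIF target genes 17 rose and 4 fell (median 0.88; 13 higher and 5 lower with library totals). Pfkfb3, which makes an allosteric activator of glycolysis, went from 79.3, 45.3 and 52.2 to 1150, 940 and 1070 CPM (4.16 ± 0.25, adjusted p = 1.8e-10). The glucose transporter Slc2a1 went from 12.1, 19.2 and 16.2 to 109, 126 and 77.6 CPM (2.72 ± 0.21, adjusted p = 4.2e-09). Hif1a rose by 2.62 ± 0.43 and the lactate exporter Slc16a3 by 2.13 ± 0.27. The T16 libraries of these 4 genes lay above all T0 libraries, as did those of 27.7% of all genes tested. The 4 genes were named for large called changes, so that separation is no separate result. In the TCA cycle 3 of 23 rose and 10 fell (median -0.26; 0 higher and 17 lower with library totals). Idh1 was at 243, 182 and 215 CPM at T0 and 66.3, 78.3 and 71.5 CPM at T16 (fell by 1.57, SE 0.14, adjusted p = 2.3e-08). It encodes the cytosolic isocitrate dehydrogenase, which the list includes although the cycle runs in mitochondria. Suclg2 and Fh1 had log2 fold changes of -1.61 and -1.23. Pcx, with an adjusted p of 0.016, lost its call with library totals (adjusted p = 0.091) and without KO T16 replicate 2 or KO T0 replicate 3 (adjusted p = 0.058 and 0.082). Of 45 oxidative phosphorylation genes 2 rose and 11 fell (median -0.32; 0 higher and 34 lower with library totals). The 11 that fell are a share close to the 23.3% that fell over all genes tested, and 0 were lower beyond 2-fold. Uqcrh, a subunit of complex III, was at 49.4, 110 and 86.4 CPM and at 33.1, 33.2 and 34.7 CPM (fell by 1.28, SE 0.36, adjusted p = 0.0076). The calls of Atp5g1, Ndufa2 and Ndufb10 were lost when single libraries were left out. The mitochondrial share of counts, given above, was lower in KO T0 replicate 1 and in the T16 libraries than in the other T0 libraries. Without that replicate 3 members were higher and 12 lower. Its part in this result was not tested.

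Of 34 cholesterol and fatty acid synthesis genes 1 rose and 11 fell (median -0.25, with 0 lower beyond 2-fold), and with library totals 0 were higher and 23 lower (median -0.70). Dhcr7, the last enzyme of cholesterol synthesis, went from 14.4, 16 and 16.2 to 5.68, 8 and 5.73 CPM and fell by 1.26 (SE 0.18, adjusted p = 1.1e-05). Scd1, the stearoyl desaturase, fell by 1.56 (SE 0.35) and Elovl6, a fatty acid elongase, by 1.27 (SE 0.33). Hmgcs1 was at 35.4, 31.4 and 40.5 and at 31, 29 and 34 CPM (-0.19 ± 0.19, adjusted p = 0.44), and with library totals it passed the test (-0.64, adjusted p = 0.0096). Among 18 LXR targets and sterol efflux genes 3 rose and 5 fell (median -0.11; 5 rose and 4 fell without KO T0 replicate 1, and 2 were higher and 9 lower with library totals). Nr1h3, the LXR alpha receptor, went from 57.6, 68.4 and 61.5 to 254, 237 and 241 CPM (1.97 ± 0.25, adjusted p = 3.5e-06). Ch25h, which makes 25-hydroxycholesterol, went from 0.753, 1.32 and 1.24 to 21, 9.39 and 24.8 CPM (4.08 ± 0.46, adjusted p = 6.2e-07). Abca1, the cholesterol exporter, was at 420, 184 and 256 and at 528, 503 and 505 CPM (0.84 ± 0.42, adjusted p = 0.11). It passed the test without KO T0 replicate 1 (1.22, adjusted p = 0.038), in the fit of the compared groups alone (0.024) and with the replicate block (0.047). For 40 lysosome genes 9 rose and 11 fell (median -0.11). With library totals 6 were higher and 24 lower, beside 1704 and 7033 of all 15782 genes tested. The lysosome and LXR counts lie near the 20.4% that rose and 23.3% that fell over all genes tested. The exopeptidase cathepsin C (Ctsc) went from 398, 269 and 302 to 2340, 2320 and 2360 CPM (2.86 ± 0.27, adjusted p = 7.4e-08). The proton pump subunit Atp6v0d2 fell by 2.16 (SE 0.38).

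Of 26 NRF2 targets 13 rose and 4 fell (median 0.49), and with library totals 6 were higher and 8 lower. Hmox1, which degrades heme, was at 982, 485 and 602 CPM at T0 and 4710, 4970 and 4180 CPM at T16 (2.74 ± 0.22, adjusted p = 7.5e-09). The ferritin heavy chain Fth1 went from 7760, 5170 and 4560 to 33000, 32000 and 31900 CPM (2.47 ± 0.26, adjusted p = 2.3e-07). The cystine transporter Slc7a11 rose by 2.68 ± 0.24. Ephx1, a microsomal epoxide hydrolase, went from 54, 39.7 and 31.7 to 3.74, 4.98 and 5.38 CPM and fell by 3.15 (SE 0.25, adjusted p = 7.9e-09). In the iron handling list 7 of 18 rose and 5 fell (median 0.08 with TMM and -0.36 with library totals). Tfrc, the transferrin receptor that imports iron, went from 415, 294 and 342 to 28.9, 28.1 and 32.1 CPM and fell by 3.56 (SE 0.31, adjusted p = 2.6e-08). Cp, a ferroxidase, rose by 4.15 ± 0.29. Of 24 integrated stress response genes 8 rose and 3 fell, and with library totals 3 were higher and 9 lower. Mthfd2, a mitochondrial folate enzyme, and Slc3a2 rose by 1.78 ± 0.14 and 1.27 ± 0.19, and the phosphatase subunit Ppp1r15a fell by 1.02 (SE 0.25). In the unfolded protein response 3 of 22 rose and 3 fell (median 0.05), and with library totals 0 were higher and 12 lower (median -0.39). The shares that rose and fell over all genes tested were larger, 20.4% and 23.3%. Herpud1 was at 29.2, 33.8 and 25.9 and at 12.5, 14.8 and 13.1 CPM (fell by 1.14, SE 0.18, adjusted p = 4.8e-05).

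Of 43 mitosis genes 2 rose and 24 fell (median -0.82; 1 higher and 35 lower with library totals). Cenpa, the centromeric histone, went from 24, 39.7 and 24.6 to 4.84, 5.69 and 5.23 CPM and fell by 2.49 (SE 0.25, adjusted p = 1.3e-07). Cenpf fell by 2.49 (SE 0.46) and the ubiquitin-conjugating enzyme Ube2c by 2.32 (SE 0.38). Tpx2, a spindle assembly factor, went the other way, from 10.5, 7.86 and 10.1 to 54.5, 46.1 and 65.6 CPM (2.54 ± 0.25, adjusted p = 1.5e-07). Mki67 was at 10.9, 16.8 and 16.1 and at 12.9, 13.3 and 13.3 CPM (-0.15 ± 0.2, adjusted p = 0.58). It passed the test with library totals (-0.61, adjusted p = 0.035). In DNA replication and S phase 6 of 44 rose and 8 fell (median -0.11). Both are below the 20.4% that rose and 23.3% that fell over all genes tested. With library totals 1 was higher and 26 lower. Mcm5, a subunit of the replicative helicase, went from 10.1, 9.14 and 8.09 to 21.8, 21.9 and 13.5 CPM (1.06 ± 0.27, adjusted p = 0.0033). E2f2 and Dut fell by 2.38 (SE 0.29) and 2.03 (SE 0.27). Of 20 cell cycle arrest and G1 genes 7 rose and 7 fell (5 higher and 10 lower with library totals). Cdkn1a, the p21 inhibitor, went from 679, 532 and 548 to 284, 273 and 292 CPM and fell by 1.05 (SE 0.17, adjusted p = 5.5e-05). Cdkn1c (p57) fell by 3.67 (SE 0.73) and cyclin D2 (Ccnd2) rose by 3.07 ± 0.29. Among 32 ribosome biogenesis genes 2 rose and 13 fell (median -0.31; 1 higher and 26 lower with library totals). Of these Rcl1, a processing factor of ribosomal RNA, rose by 2.64 ± 0.37 and Npm1 fell by 1.3 (SE 0.29).

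For the COP1 ligase, whose partner STK40 is, 2 of 13 genes of the ligase and Tribbles list rose, Stk40 and Trib1. Another 3 fell (median 0.01), and with library totals 2 were higher and 7 lower. Over all genes tested 20.4% rose and 23.3% fell, shares near those of this list. Trib1, the Tribbles pseudokinase that also brings COP1 to C/EBP proteins, was at 59.2, 79.1 and 75.6 CPM at T0 and at 198, 172 and 178 CPM at T16 (1.36 ± 0.23, adjusted p = 7.2e-05). Rfwd2, the ligase itself, was at 8.28, 10.1 and 9.77 and at 10.6, 10.7 and 11.9 CPM (0.24 ± 0.16, adjusted p = 0.25, and -0.22 with library totals). Rbx1, a RING subunit of cullin ligases, fell by 0.61 (SE 0.18, adjusted p = 0.0096). The adaptor Ddb1 fell by 0.46 (SE 0.17, adjusted p = 0.034), a call lost without KO T0 replicate 1 (adjusted p = 0.21) or without any 1 of the T16 libraries (0.062 to 0.095). Of 18 genes for transcription factors that COP1 targets, 6 rose and 6 fell (median -0.29), or 5 were higher and 9 lower with library totals; these are transcript levels and say nothing on the proteins. Cebpa went from 168, 112 and 120 to 57.2, 57.6 and 57.7 CPM and fell by 1.21 (SE 0.16, adjusted p = 5.6e-06). Cebpb went from 43.7, 80.7 and 66.2 to 182, 186 and 190 CPM (1.55 ± 0.33, adjusted p = 0.00079). The 2 time points did not overlap for either gene. Cebpd was at 13.4, 34.2 and 26.3 and at 12.6, 12.8 and 13.3 CPM (-0.93 ± 0.38, adjusted p = 0.054). Cebpd passed the test in the fit of the compared groups alone (adjusted p = 0.03), without KO T0 replicate 1 (0.013), with library totals (0.0044), with the replicate block (0.027) and with DESeq2 (0.046). Of the ETS family, Etv5 went from 1.81, 2.29 and 2.31 to 17.6, 16 and 13.4 CPM (2.88 ± 0.25, adjusted p = 2.8e-08). Etv1 and Ets2 rose by 2.64 ± 0.23 and 2.31 ± 0.18. Among 29 AP-1 and immediate early genes 8 rose and 9 fell (median 0.04), not far from the 20.4% and 23.3% over all genes tested. With library totals 5 were higher and 15 lower (median -0.42). The AP-1 partner Batf went from 6.78, 10.5 and 8.67 to 92.2, 81.2 and 114 CPM (3.47 ± 0.31, adjusted p = 3.5e-08). Fosb, Egr2 and Klf2 fell by 4.64 (SE 0.5), 3.09 (SE 0.3) and 2.54 (SE 0.37).

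Of 16 neutrophil and granulocyte precursor markers 12 fell and 2 rose (median -1.31), and the higher sum at T16 came with Lcn2, which macrophages also make. Elane, a granule protease of precursors, went from 7.35, 7.58 and 5.57 to 1.06, 1.6 and 0.826 CPM (fell by 2.57, SE 0.37, adjusted p = 1.3e-05). Retnlg fell by 3.75 (SE 0.43). Of 13 dendritic cell markers 3 rose and 5 fell (median -0.74). Ccr7, a homing receptor, went from 1.13, 1.56 and 1.72 to 5.33, 8.11 and 4.53 CPM (2.03 ± 0.33). Batf3 fell by 1.77 (SE 0.45). Of 15 stromal and endothelial markers 4 rose and 1 fell (median 1.03). Pecam1 was at 5.2, 7.48 and 5.95 and at 35.6, 50.5 and 20.4 CPM (2.51 ± 0.37, adjusted p = 1.9e-05). Kdr rose by 1.57 ± 0.35, and the call of Pdgfrb was lost without KO T16 replicate 2 (adjusted p = 0.21), without KO T0 replicate 1 or 3 (0.12 and 0.13), with library totals (0.13) and with no filter on low counts (0.12). Of 7 erythroid markers tested 4 fell, among them Epor (fell by 3.79, SE 0.44), and 1 rose. Of 10 tested T, B and NK cell markers 3 fell (5 lower with library totals), among them Cd79b (fell by 1.78, SE 0.35) and Cd4 (fell by 1.23, SE 0.28). Of 4 tested mast cell and basophil markers 1 fell, Kit (by 1.49, SE 0.38). Over all genes tested 20.4% rose and 23.3% fell, and 7033 of 15782 were lower with library totals. The falls among lymphocyte and mast cell markers and the rises among stromal markers lie near those shares.

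The T16 state was then set against the earlier KO time point, KO T6, which uses the same 3 T16 libraries. Against T6, 3821 genes were higher at T16 (24.2%) and 3448 lower (21.8%), together 7269 (46.1%); with library totals these were 5954 and 1935. Of the 26 inflammatory cytokines 0 were higher (also 0 at an unadjusted edgeR p under 0.05 and 0 with DESeq2) and 19 lower at T16 than at T6 (median -2.44), of 28 NF-kB genes 1 and 26, of 20 chemokines 1 and 14, of 25 feedback genes 4 and 19, and of 58 interferon response genes 1 and 44 (median -0.95, against 0.03 over all genes). In DNA replication and S phase 21 of 44 were higher and 3 lower. Tnf was at 1550 ± 334 CPM at T6 (SD, n = 3) and Il6 at 97 ± 18.4 CPM, both far above their T16 libraries. Nos2 was at 5010 ± 1110 CPM at T6 and 716 ± 81.3 CPM at T16, and Ptgs2 at 1060 ± 491 CPM at T6, far above its T16 libraries.

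Among the genes lowest relative to T6, Steap4, a metalloreductase, was at 26.4 ± 2.61 CPM at T6 and at 0.0706, 0.249 and 0.175 CPM at T16, with 7 counts at T0. Mt2, a metallothionein, stood at 860 ± 554 CPM at T6 and 11.9, 9.71 and 12.1 CPM at T16 (fell by 6.26 from T6, SE 0.48), inside its T0 range of 7.98 to 18.9 CPM. The vasoconstrictor Edn1 was at 233 ± 76.1 CPM and 4.87, 1.92 and 5.28 CPM (fell by 5.85 from T6, SE 0.45). Gfi1, Shisa3 and Adamts4 followed, with log2 differences of -5.06 to -5.01. The opposite pattern was led by Arg1, which was at 0.694 ± 0.289 CPM at T6 and higher by 6.18 ± 0.45 at T16 (adjusted p = 1.4e-09). Wnk2, a WNK-family kinase, was at 0.283 ± 0.0942 CPM at T6 and 16.9, 20.3 and 16 CPM at T16 (5.91 ± 0.31). For both, T6 and T0 levels were low. Tmem86a, Nfatc2, Cnr2 and Arhgap19 were instead low at T6 and back up at T16. Nfatc2, a calcium-regulated transcription factor, was at 66.3, 63 and 65 CPM at T0, 2.21 ± 0.386 CPM at T6 and 61.4, 64 and 58.3 CPM at T16 (4.8 ± 0.19 above T6). Its T0 and T16 libraries overlapped. Cebpa had 3.91 ± 0.839 CPM at T6, below both its T0 and its T16 libraries.

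From T16 to T32 fewer genes moved: 118 were higher at T32 (0.748%) and 285 lower (1.81%), together 403 (2.55%). Ifnb1 reached 15.5 ± 2.88 CPM at T32 (2.07 ± 0.38 above T16, adjusted p = 0.0039). Slc9a9 reached 27.5 ± 1.58 CPM (2.17 ± 0.21), above T16 but below its T0 libraries. Fat3, Gpr55, Lilra6 and Il23r were higher by 1.49 to 1.79; the call of Il23r was lost without any 1 of the T16 libraries or KO T32 replicate 2, and that of Gpr55 without KO T16 replicate 3. Lower at T32 were Rac3, a small GTPase (2.91 ± 0.652 CPM at T32, fell by 2.89 from T16, SE 0.3), U90926, Slc7a2 (25.7 ± 3.93 CPM, fell by 2.71, SE 0.25), the endothelial lipase Lipg (63 ± 16.8 CPM, fell by 2.53, SE 0.46), Cbr2 and Il2ra. None of the 58 interferon response genes was called between T16 and T32 (0 higher and 0 lower by edgeR; 0 and 3 at an unadjusted p under 0.05, and 0 and 2 with DESeq2). Saa3 was at 24200 ± 3580 CPM and Ccl5 at 9450 ± 627 CPM at T32, close to their T16 libraries. The fit of these 6 libraries alone called 921 higher and 1311 lower, so the count from T16 to T32 depends on which libraries enter the fit.

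**Figure D4:**
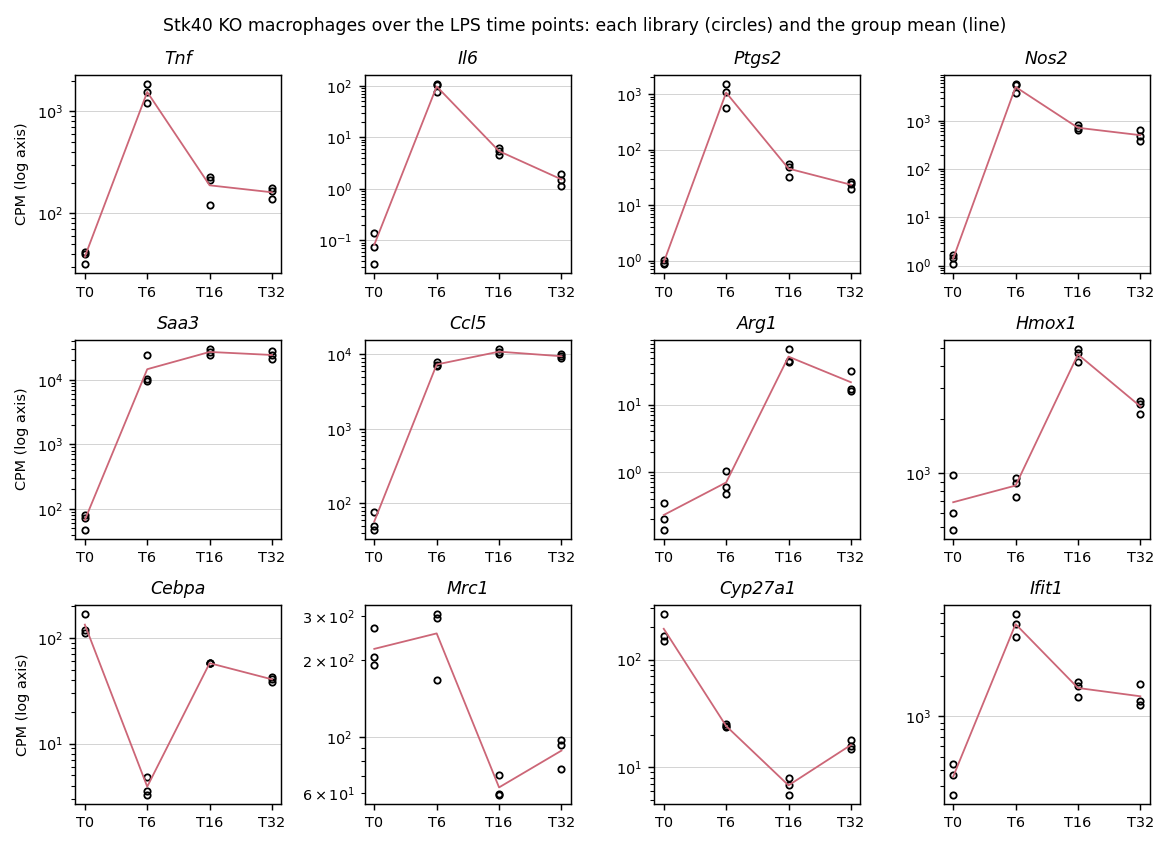
Levels of 12 genes in the KO libraries at T0, T6, T16 and T32 (time labels, evenly spaced and without a unit), in CPM on a log axis; circles are single libraries and the line joins the group means. Tnf, Il6, Ptgs2, Nos2 and Ifit1 are highest at T6, Arg1 and Hmox1 at T16, Saa3 and Ccl5 stay near 24200 and 9450 CPM at T32, and Cebpa is lowest at T6.

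Whether the T16 response differed from that of WT macrophages was tested as the difference of the T16 minus T0 changes of KO and WT. In WT, 2970 genes rose (18.8%) and 2710 fell (17.2%) from T0 to T16, together 36.0%. The difference itself was called for 11 genes (0.0697%). The log2 change in KO minus that in WT was positive for 4 (0.0253%) and negative for 7 (0.0444%). That sign does not say in which genotype a gene changed more. Tspan13, a tetraspanin, was at 30.3, 30.5 and 39.2 CPM in KO at T0 and at 37.1, 38.4 and 44.9 CPM at T16, and in WT at 27.5 ± 3.6 CPM (n = 3) and 6.64 ± 0.269 CPM (n = 2). Its responses differed by 2.32 ± 0.27 (adjusted p = 0.00073). Aqp9, a channel for water and glycerol, went from 0.653, 0.623 and 0.654 to 3.67, 2.31 and 3.8 CPM in KO and from 1.33 ± 0.191 to 0.732 ± 0.0804 CPM in WT (3.2 ± 0.41, adjusted p = 0.0011). Tspan13 thus fell in WT and did not pass the test in KO, and Aqp9 rose in KO and fell in WT. Nek6, a mitotic kinase, rose in both, by 2.15 ± 0.12 in KO and 1.13 ± 0.13 in WT (difference 1.03 ± 0.18, adjusted p = 0.025). The fourth gene, Emp1, named because the count is small, differed by 2.01 (adjusted p = 0.046).

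Interferon-inducible genes were among those with a negative difference. Slfn1 went from 189, 115 and 166 to 556, 484 and 523 CPM in KO and from 20.2 ± 3.41 to 351 ± 73.8 CPM in WT. These responses differed by -2.38 ± 0.29 (adjusted p = 0.00078), with an uncertain value because the Schlafen genes are alike. Zbp1, a sensor of Z-form nucleic acids that triggers cell death, went from 316, 257 and 280 to 771, 702 and 713 CPM in KO and from 94.5 ± 32.1 to 696 ± 161 CPM in WT (-1.52 ± 0.27, adjusted p = 0.03). Ms4a4c went from 246, 182 and 221 to 1750, 1430 and 1810 CPM and from 41.7 ± 9.21 to 1060 ± 260 CPM (-1.72 ± 0.29, adjusted p = 0.025). In these 3 genes the KO level at T0 was above the WT mean at T0, and the KO level at T16 was not below the WT mean at T16. Lair1, an inhibitory collagen receptor, was in KO at 80.9, 77.6 and 90.8 and at 74.1, 76.9 and 79.4 CPM (-0.11 ± 0.1, adjusted p = 0.38). It rose in WT by 1.02 ± 0.11 (difference -1.13 ± 0.15, adjusted p = 0.0017). Wdr18 and Vars, for ribosome assembly and valine tRNA charging, fell in KO by 1.12 (SE 0.11) and 0.81 (SE 0.13) and did not pass the test in WT (differences -0.94 ± 0.16 and -1.1 ± 0.19). Ccdc86 rose by 0.69 ± 0.12 in KO and 1.68 ± 0.13 in WT (difference -1 ± 0.17; adjusted p = 0.025 for Wdr18, Vars and Ccdc86). Of the 58 interferon response genes, 2 were called with a smaller response in KO and 0 with a larger one. The latter was also 0 at an unadjusted edgeR p under 0.05 and with DESeq2. Over the list the median difference was -0.97 (-0.05 over all genes), with a median rise of 1.56 in KO and 2.61 in WT. The mean log2 of CPM plus 1 over the list was 7.87, 7.34 and 7.58 in KO at T0. In WT at T0 it was 6.09, 6.39 and 5.75. At T16 it was 9.4, 9.19 and 9.41 in KO and 8.58 and 8.76 in WT. The list was not tested as a set. Nos2, at 716 ± 81.3 CPM in KO and 134 ± 44.2 CPM in WT at T16, did not pass the test of the difference (3.03 ± 1.18, adjusted p = 0.39). With WT T16 in 2 libraries that differed from each other, leaving out 1 of them moved these counts from 4 and 7 to 718 and 343 without WT T16 replicate 1 and to 2 and 3 without WT T16 replicate 2. Without the latter, 6 of the 10 genes with the lowest p lost their calls (Ms4a4c, Wdr18, Vars, Nek6, Ccdc86 and Zbp1, adjusted p 0.17 to 0.23). DESeq2 called 93 and 150.

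**Figure D5:**
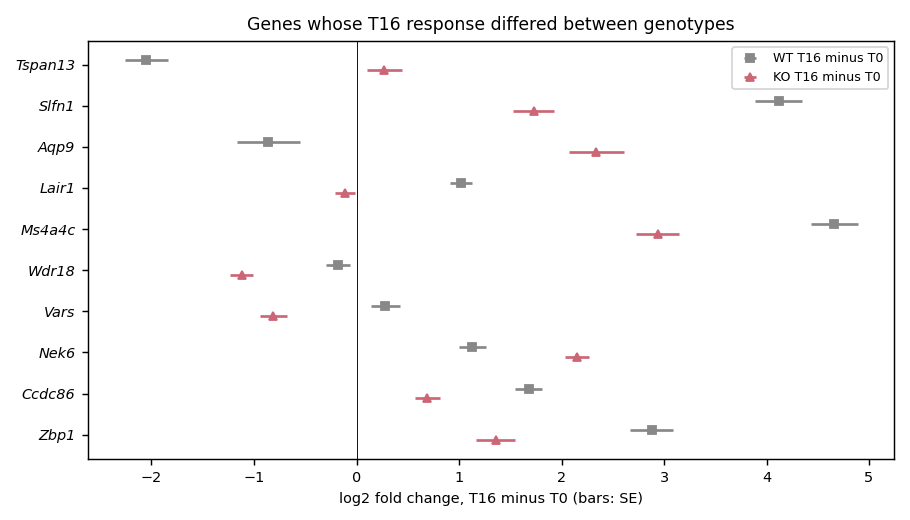
Log2 fold change from T0 to T16 in KO (triangles) and WT (squares) libraries, with bars of 1 SE, for the 10 genes with the lowest p in the test of the difference between the responses. Aqp9, Tspan13, Lair1 and Vars lie on opposite sides of 0 in the 2 genotypes, and of these only Aqp9 was called in both. Slfn1, Ms4a4c, Ccdc86 and Zbp1 are to the right of 0 in both with the KO value nearer to 0.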

How the data were processed

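Polyadenylated RNA of 23 BMDM libraries was sequenced as unstranded, single-end reads (TruSeq RNA v2 kit, HiSeq 4000), per the labels' protocols, and overlapping and antisense genes share reads. GSNAP aligned them to GRCm38, per the submitters' processing notes. The authors deposited raw counts of uniquely aligned reads per Ensembl gene, per the file headers, and size-factor-adjusted RPKM, which was not used. Counts were identical in the series table and the per-library tables for 23 of 23 libraries. The aligner's version and the annotation used for counting were not stated. Coordinates come from GENCODE M21 on GRCm38.

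Groups were taken from the labels. Nothing says that replicates came from separate mice or cultures, so the spread behind each p-value may be technical. Replicates differed by more than sampling noise in every pair of the 6 libraries (chi-square over its degrees of freedom from 12.83 to 135.81).

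Tests were run with edgeR 4.0.16 (R 4.3.3). The filterByExpr filter kept 15782 genes, TMM factors ran from 0.68 to 1.45, and a robust quasi-likelihood model with a mean per group was fitted to all 23 libraries (common biological coefficient of variation 0.217), so the groups share an estimate of the spread. Adjusted p is Benjamini-Hochberg over all genes tested, with calls under 0.05. Standard errors derive from the F statistic, levels are TMM-scaled CPM, and an SD is over libraries. The test was also run on simulated counts, drawn from the fitted spread, with few genes changed and as many up as down. In these data 43.7% of genes were called, so that run cannot speak to the choice of scaling. Alternatives were DESeq2 1.42.0, DESeq2 size factors, library totals, no filter on low counts, the compared groups alone, each library left out, and, added after seeing the data, the replicate number as a block. Libraries of 19455080 to 44097733 counts give a precision set by replicate spread for all but low genes.

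The comparison, the gene lists and the tests were chosen with earlier results of these data known. Named genes are the 15 largest rises and the 15 largest falls (called, with a symbol, averaging at least 5 CPM, groups not overlapping); up to 4 called members of each list with the largest changes; a fixed set of reference genes; the 6 largest rises and falls for T16 against T6 and T32 against T16; and the 10 lowest p for the difference between genotypes. Lists overlap in members. Promoters were read from the RefSeq table of GRCm38.p6, which held 62 of 86 named genes looked for. Some items are withheld and not reported here.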

Additional observations from a re-analysis of the deposited data

Results flagged for a closer look

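The T16 response differed between KO and WT by the edgeR test of the difference itself. The difference was positive for 4 genes and negative for 7. The log2 difference (KO response minus WT response) was 2.32 for Tspan13, 3.2 for Aqp9 and 1.03 for Nek6. It was -2.38 for Slfn1, -1.13 for Lair1, -1.72 for Ms4a4c, -0.94 for Wdr18, -1.1 for Vars, -1 for Ccdc86 and -1.52 for Zbp1. Tspan13, Slfn1 and Aqp9 passed the test under every alternative run. Lair1 lost its call in the fit of the compared groups alone (adjusted p = 0.13), and the other 6 lost it there and without several single libraries. WT T16 has 2 libraries that differ from each other, and their part in these differences was not tested beyond leaving each out.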

How the results depend on the processing

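For T16 against T0, library totals gave 1704 genes higher and 7033 lower, and 1606 lower beyond 2-fold, where DESeq2 gave 367. Leaving out each library gave 2550 to 3544 higher, 2799 to 3807 lower, 750 to 1007 higher beyond 2-fold and 450 to 816 lower beyond 2-fold, the lowest of the last without KO T16 replicate 1. The difference from the WT response was positive in 2 genes and negative in 1 in the fit of the compared groups alone. It was negative in 14 with library totals, and positive in 93 and negative in 150 with DESeq2. Leaving out each library gave 2 to 718 and 2 to 343, both highest without WT T16 replicate 1, when the lone WT T16 library was assumed to vary like the other groups. T16 against T6 gave 5954 and 1935 with library totals. T32 against T16 gave 921 and 1311 in the fit of the compared groups alone, 253 and 523 with DESeq2, and 41 to 70 higher and 138 to 187 lower without each single library. The cause of these shifts was not tested.

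The 5 uncalled genes that changed sign were Tlr2, Cd68, Rfwd2, Tlr4 and Ciita. Tlr2 went from 0.08 to -0.36 with library totals and to -0.04 without KO T16 replicate 3 or KO T0 replicate 3 (-0.04 to 0.29 without each library), Cd68 from 0.31 to -0.12 and Rfwd2 from 0.24 to -0.22 with library totals. Tlr4 went from -0.02 to 0.23 without KO T0 replicate 1, 0.03 without KO T16 replicate 2 (-0.21 to 0.23 without each library) and 0.00 with the replicate block, and Ciita from -0.40 to 0.09 without KO T0 replicate 1 (-0.74 to 0.09 without each library). Replicate numbers follow accession order, and same-numbered T0 and T16 libraries correlated by 0.01, 0.19 and 0.00 in their deviations. By the order of the sample identifiers in the titles, T0 replicates 1, 2 and 3 stand beside T16 replicates 3, 2 and 1. Those pairs correlated by 0.15, 0.19 and 0.06. Whether T0 and T16 libraries were paired was not tested, and no fit used that second order. With the replicate number as a block, 3493 genes were higher and 3797 lower, 952 and 703 of them beyond 2-fold. Genes with few counts, such as Il6 and Csf3 at T0, are limited by depth.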
